A study of Mus musculus with 4 samples.

Results

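The regions described here are short H3K9ac peaks that were listed with romidepsin only and that lay beside, but not on, a peak already present without the drug. They were chosen from the positions in the authors' 2 peak lists. A member was a peak of the romidepsin list that was shorter than 5000 bp, overlapped no peak of the CM list by even 1 bp, and lay within 2 kb of the edge of one. The rule found 5074 such flanking peaks among the 103336 peaks of the romidepsin list, which was 5.8% of the 87465 short romidepsin-only peaks. Position and length thus chose the members, and their counts, distances and lengths are given as a description.

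Chromatin immunoprecipitation with sequencing had been done for histone H3 acetylated at lysine 9 (H3K9ac) in mouse BM-derived MDSC, the myeloid-derived suppressor cells grown from bone marrow, which the series describes as made senescent in vitro. One immunoprecipitated library came from cells in CM plus romidepsin and one from cells in CM without it. The labels do not expand CM and give no dose, time, mouse strain or pooling, and the 2 input libraries were not analysed here. With 1 library per condition there is no replicate error and no test between conditions, the read depth is unknown, and the exact 95% intervals printed below cover counting error only. The libraries were made from bulk cells, so more cells carrying the mark and more of it per cell cannot be told apart. Several flanking peaks can belong to the same CM peak, so they are not independent of each other. CM peaks at gene ends were present for 17 of 20 monocyte and macrophage markers, 11 of 20 neutrophil markers, 7 of 15 dendritic cell markers, 6 of 14 erythroid and megakaryocyte markers and 4 of 20 lymphocyte markers, against 48.8% of all protein-coding genes. The neutrophil markers without one were Camp, Ctsg, Fcnb, Ltf, Ly6g, Mpo, Ngp, Retnlg and S100a9. Those with one included S100a8, Elane, Csf3r, Cxcr2 and Prtn3. The monocyte and macrophage markers without one were C1qa, Marco and Mrc1.

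Romidepsin inhibits class I histone deacetylases, the enzymes that remove acetyl groups from histone tails. H3K9ac is laid down by acetyltransferases at active promoters and enhancers, where it sits on the nucleosomes flanking the start site, and acetyl groups are taken off again by deacetylase complexes. A peak caller for broad marks joins enriched stretches into 1 region and leaves stretches below its threshold out.

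Few of the flanking peaks contained a transcription start site. A start site of a protein-coding gene lay inside 44 of the 5074 flanking peaks (0.867%, interval 0.631 to 1.16), against 1.02% of the short romidepsin-only peaks 2 to 10 kb from a CM peak and 2.11% of those beyond 10 kb. The promoters that did fall under a flanking peak are shown for the 5 peaks with the highest −log10 q among the 70 that overlapped a promoter window, because they let the base composition be read directly. Here q is the p-value adjusted for multiple testing and fold the enrichment over background, both as the authors' peak caller gave them for each peak. Each line gives the 250 bases before the start from RefSeq (build GRCm38.p6, the assembly that mm10 represents), 5′ to 3′ on the gene's own strand, with each CpG dinucleotide in capitals. The second Garnl3 line is the other annotated start of that gene, which lay inside the CM peak, for comparison.
Garnl3, start under the flanking peak, chr2:33131437-33131686, minus strand: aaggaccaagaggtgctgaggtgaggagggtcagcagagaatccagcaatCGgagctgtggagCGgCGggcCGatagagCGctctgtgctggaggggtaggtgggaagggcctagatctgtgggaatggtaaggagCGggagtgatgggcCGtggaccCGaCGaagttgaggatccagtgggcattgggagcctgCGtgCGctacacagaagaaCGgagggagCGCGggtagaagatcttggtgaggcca
Garnl3, start under the CM peak, chr2:33130620-33130869, minus strand: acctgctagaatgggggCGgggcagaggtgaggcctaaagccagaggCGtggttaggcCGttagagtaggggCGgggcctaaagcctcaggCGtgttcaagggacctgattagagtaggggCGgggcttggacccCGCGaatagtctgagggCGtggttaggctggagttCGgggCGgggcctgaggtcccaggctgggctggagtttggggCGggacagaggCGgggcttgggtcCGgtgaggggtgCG
1700122O11Rik, chr17:48038294-48038543, minus strand: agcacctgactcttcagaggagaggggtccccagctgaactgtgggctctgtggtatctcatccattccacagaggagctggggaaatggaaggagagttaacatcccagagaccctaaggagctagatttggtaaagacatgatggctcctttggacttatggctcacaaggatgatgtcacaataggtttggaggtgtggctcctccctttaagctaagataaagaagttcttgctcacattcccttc
Pcbp2, chr15:102470289-102470538, plus strand: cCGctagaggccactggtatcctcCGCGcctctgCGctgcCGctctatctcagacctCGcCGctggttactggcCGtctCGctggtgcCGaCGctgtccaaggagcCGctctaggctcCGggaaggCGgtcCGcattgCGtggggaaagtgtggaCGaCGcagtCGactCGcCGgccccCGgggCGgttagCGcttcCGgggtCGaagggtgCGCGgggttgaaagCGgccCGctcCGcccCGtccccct
Klrb1f, chr6:129045651-129045900, plus strand: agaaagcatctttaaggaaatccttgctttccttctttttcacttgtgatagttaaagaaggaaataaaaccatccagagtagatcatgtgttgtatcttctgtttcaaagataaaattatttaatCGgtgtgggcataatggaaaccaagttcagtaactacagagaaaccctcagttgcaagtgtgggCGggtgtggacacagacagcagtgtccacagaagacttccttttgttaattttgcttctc
Acot7, chr4:152185358-152185607, plus strand: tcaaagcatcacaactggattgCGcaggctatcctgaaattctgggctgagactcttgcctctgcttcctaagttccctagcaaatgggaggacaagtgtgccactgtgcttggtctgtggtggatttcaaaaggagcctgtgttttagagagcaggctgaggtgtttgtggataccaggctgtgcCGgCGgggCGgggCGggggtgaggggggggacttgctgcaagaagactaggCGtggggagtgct
The flanking peak over the Garnl3 start was 1929 bp long (fold 3.88, −log10 q 5.91), and that over the Klrb1f start 967 bp (fold 3.56, −log10 q 5.06). The stretches before the starts of 1700122O11Rik, Klrb1f (a lectin-like receptor gene of natural killer cells) and Acot7 (an acyl-CoA thioesterase) held 0, 2 and 6 CpG. Garnl3 held 14 CpG before the start under the flanking peak and 15 before the start under the CM peak. That CM peak ended at 33130624, so it covered only the edge of the second Garnl3 stretch, next to the start. The rest of that stretch lay in neither the CM peak nor the flanking peak. Pcbp2, which encodes an RNA-binding protein, had the most CpG, with 32, but its flanking peak ended at 102470312 and covered only the outer edge of the window, while the start itself lay in neither that peak nor the CM peak.

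Over all start sites of protein-coding genes, CpG counts under flanking peaks were close to those under no peak. In windows of 300 bases, from 250 before to 50 after the start, the median CpG count was 5 for the 49 start sites under flanking peaks (quartiles 2 and 9). It was 8 under short romidepsin-only peaks at 2 to 10 kb, 14 under those beyond 10 kb and 23 under CM peaks (9229 start sites), and 4 at the 8715 start sites under no peak. At least 10 CpG were found at 12 of the 49 start sites under flanking peaks (24.5%), against 89.8% under CM peaks. The GC-rich hexamer GGGCGG, searched on both strands, was found in 11 of the 49 windows (22.4%), against 68.6% under CM peaks and 46.2% of all protein-coding windows. TATAAA was found in 4 of the 49 windows (8.16%), TGANTCA in 6 (12.2%) and GAGGAAG in 7 (14.3%), against 12.6%, 6.99% and 13.6% of all protein-coding windows. A match is a description of the letters and not a bound site. The rule keeps flanking peaks off the CM peaks, whose starts were CpG-rich, so nothing is read from these differences.

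**Figure D1:**
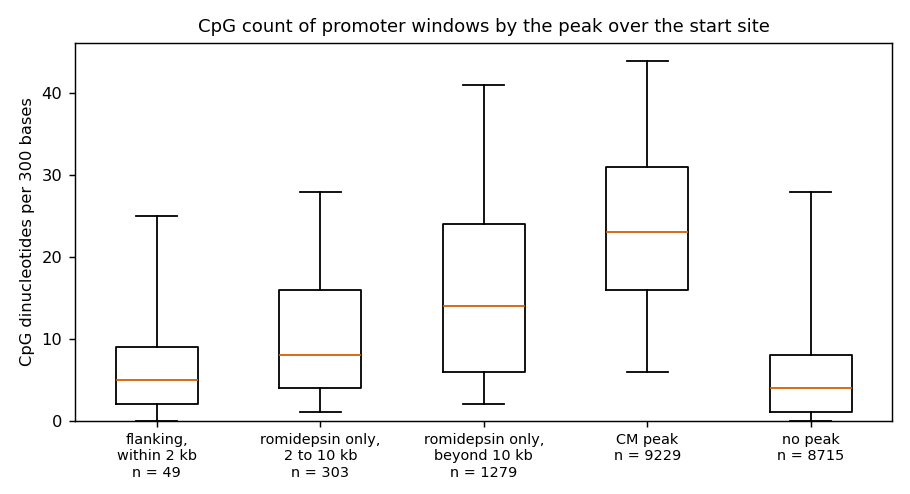
CpG dinucleotides per 300-base promoter window (vertical axis) of protein-coding start sites, grouped by the peak over the start site; boxes show quartiles with the median in red, and whiskers the 5th and 95th percentiles. The 49 start sites under flanking peaks have a median of 5, near the 4 of starts under no peak and below the 23 of starts under CM peaks.

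Most flanking peaks lay just outside another romidepsin peak that overlapped the CM peak itself. Such an overlapping peak was present for 5059 of the 5074. Nearly all CM peaks had one, as only 20 of the 16419 lacked it, so its presence does not set the flanked ones apart. On the side of the flanking peak, the overlapping peak reached a median of 758 bp past the CM edge. For 122 of the 5059 flanking peaks it stopped short of that edge. A gap with a median of 449 bp (quartiles 358 and 653) then separated it from the flanking peak. The gap was under 500 bp for 2978 flanking peaks (58.9%) and under 1000 bp for 4557 (90.1%). No 2 peaks of the romidepsin list were closer than 301 bp, so a smaller gap could not appear. When romidepsin peaks closer than 1 kb were merged, 306 flanking peaks were left in place of 5074. On the other side, away from the CM peak, the next romidepsin peak was a median of 1491 bp away, and for 4144 flanking peaks (81.7%) the gap on that side was the larger. The nearest other romidepsin peak lay within 1000 bp for 95.6% of flanking peaks, against 70.9% and 54.0% of the short romidepsin-only peaks at 2 to 10 kb and beyond 10 kb. The rule itself places a CM peak nearby, mostly with a romidepsin peak on it, so nothing is read from that difference.

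Klf2, a transcription factor that restrains inflammatory activation of monocytes, had a flanking peak of 2094 bp upstream (chr8:72316168-72318261, fold 4.34, −log10 q 7.57), 415 bp from a CM peak of 3688 bp over its start. Ptpn7, a phosphatase of blood cells that acts on MAP kinases, had one of 1448 bp upstream (chr1:135129052-135130499, fold 4.45, −log10 q 8.00). Oasl1, an interferon-induced gene, had one of 1733 bp upstream (chr5:114920639-114922371, fold 4.04, −log10 q 7.73), and here the CM peak was only 576 bp long with a −log10 q of 1.39. Grn, which encodes the lysosomal and secreted protein progranulin, had one of 3060 bp upstream (chr11:102424035-102427094, fold 3.72). Flanking peaks stood on both sides of the CM peak at Mki67, the proliferation marker, and at Irak3, a restraint on Toll-like receptor signalling. At Mki67 the upstream one was 1244 bp and the gene-body one 3050 bp long, and at Irak3 they were 354 and 1423 bp long.

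**Figure D2:**
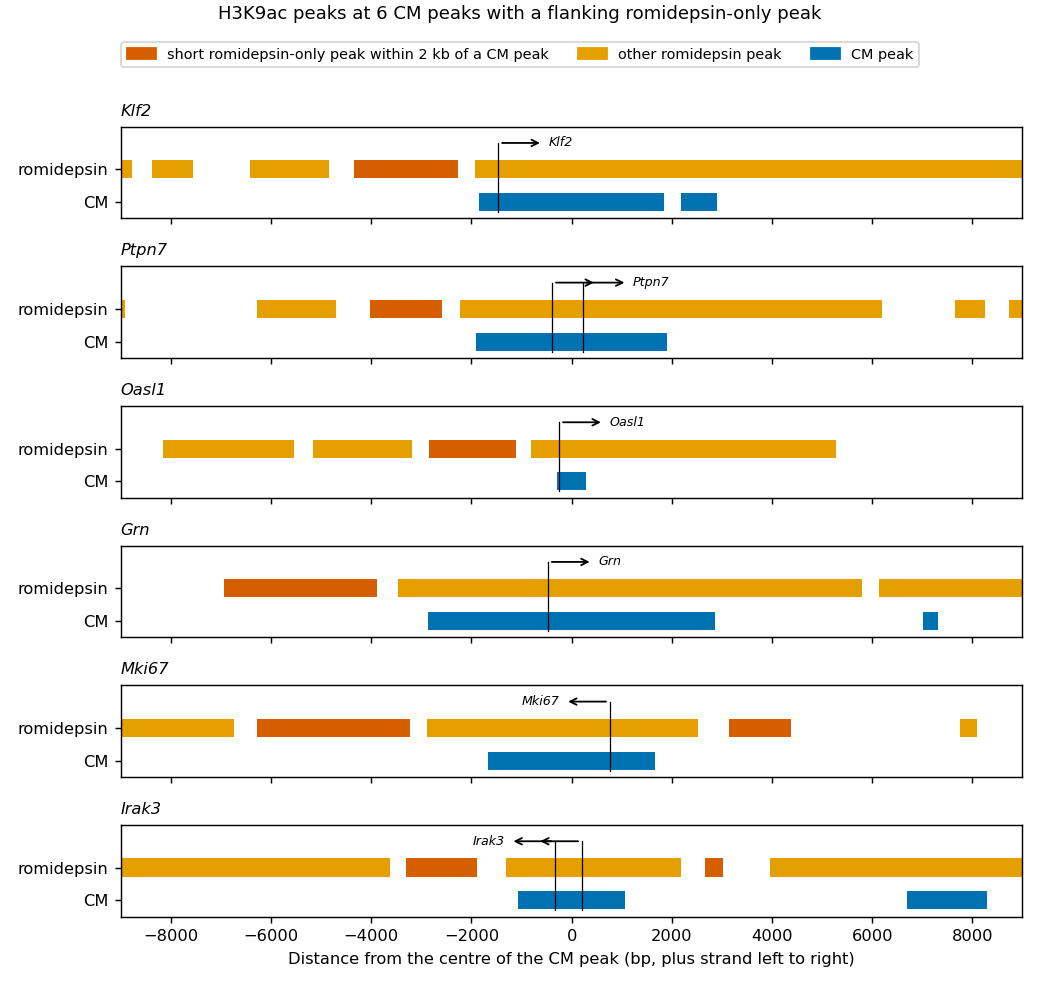
Peaks at 6 CM peaks, in bp from the centre of the CM peak (horizontal axis), with the romidepsin list in the upper row and the CM list in the lower row of each panel; arrows mark annotated start sites and the direction of the gene, and bars reaching the frame continue beyond it. A gap separates each flanking peak (red) from the romidepsin peak over the CM peak, which reaches 517 bp past the CM edge upstream of Oasl1 and 604 bp upstream of Grn.

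Flanking peaks were split about evenly by chromosome direction, and more of them lay upstream of a start site than on its gene-body side. Of the 5074, 2573 (50.7%, interval 49.3 to 52.1) lay at higher coordinates than their nearest CM peak and 2501 at lower ones, and 56 had a CM peak within 2 kb on both sides. For 2215 flanking peaks the nearest CM peak covered start sites of 1 strand, so that an upstream side and a gene-body side could be told apart. Of these, 1251 (56.5%, interval 54.4 to 58.6) lay upstream and 964 (43.5%, interval 41.4 to 45.6) on the gene-body side. The upstream share was 55.8% for genes on the plus strand and 57.2% for genes on the minus strand. The upstream excess depended on the distance: with the limit at 5 kb in place of 2 kb, 51.8% lay on the gene-body side.

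The room left on each side differed as well. Over 6599 CM peaks that covered start sites of 1 strand, the romidepsin peak reached a median of 1159 bp past the CM edge upstream and 2132 bp on the gene-body side, and it reached farther on the gene-body side in 69.1% of cases. A flanking peak can appear only where that reach is at most 1699 bp, which is the 2 kb limit less the smallest gap. This held for 4307 upstream sides (65.3%) and 2694 gene-body sides (40.8%). Over all sides, 18.5% of upstream sides (interval 17.6 to 19.5) and 14.3% of gene-body sides (interval 13.5 to 15.2) held a flanking peak. Over the sides with room the order was turned round, at 28.4% upstream (interval 27.0 to 29.7) and 35.1% on the gene-body side (interval 33.3 to 37.0). At a reach of 400 to 800 bp the shares were 29.5% upstream and 40.9% on the gene-body side, and at 1200 to 1700 bp they were 20.9% and 25.4%, with intervals that overlapped. Both sides held a flanking peak at 179 of these CM peaks.

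**Figure D3:**
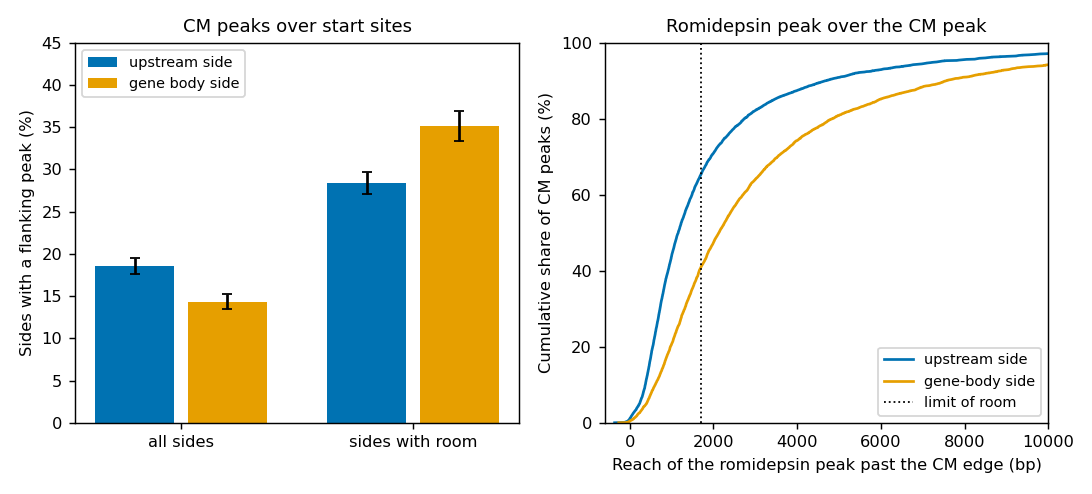
Left, share of CM peak sides with a flanking peak (vertical axis, percent) for the upstream and the gene-body side of 6599 CM peaks over start sites of 1 strand, for all sides and for sides where the romidepsin peak over the CM peak reached at most 1699 bp; error bars are exact 95% intervals. Right, cumulative share of those CM peaks (vertical axis) by the reach of the romidepsin peak past the CM edge (horizontal axis, bp), which is longer on the gene-body side (median 2132 bp) than upstream (1159 bp).

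Inside genes, away from their ends, lay the CM peaks of 1025 flanking peaks. Of these, 270 had a CM peak over a start site and 193 a CM peak under genes with no single annotated strand, and both were left out. Of the other 562, 219 (39.0%, interval 34.9 to 43.1) were on the 5′ side of the CM peak with the remaining ones on the 3′ side. The room left on each side of these CM peaks was not compared, so the split is given as a count only. Flanking peaks of CM peaks over start sites of both strands numbered 219 (4.32%), and 2640 (52.0%) had a CM peak that covered no annotated start site. Upstream flanking peaks had a median length of 753 bp and a median fold of 2.58, and gene-body ones 820 bp and 2.56.

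With gene ends taken as 1 kb to either side, fewer flanking peaks than flanked CM peaks lay at gene ends. By overlap of at least 1 bp, 799 (15.7%, interval 14.8 to 16.8) lay within 1 kb of an annotated gene end, 2381 (46.9%, interval 45.5 to 48.3) elsewhere in a gene and 1894 (37.3%, interval 36.0 to 38.7) outside genes. These shares depended on the window: with 2.5 kb in place of 1 kb, 52.8% of flanking peaks lay at gene ends, 30.1% elsewhere in a gene and 17.2% outside genes. The 4478 CM peaks nearest to them lay at gene ends in 64.6% of cases, elsewhere in genes in 20.1% and outside genes in 15.3%. The gene-end share was 8.81% for short romidepsin-only peaks at 2 to 10 kb and 7.31% for those beyond 10 kb. In each length class it was higher for the flanking peaks (14.5%, 6.52% and 5.16% under 500 bp). The rule itself places flanking peaks near CM peaks, which mostly lay at gene ends, so nothing is read from that difference. Where the CM peak lay at a gene end, 671 flanking peaks were also at a gene end, 1452 lay elsewhere in a gene and 1126 outside genes. Of the upstream flanking peaks 60.3% lay outside genes, and of the gene-body ones 89.9% lay inside a gene away from its ends.

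**Figure D4:**
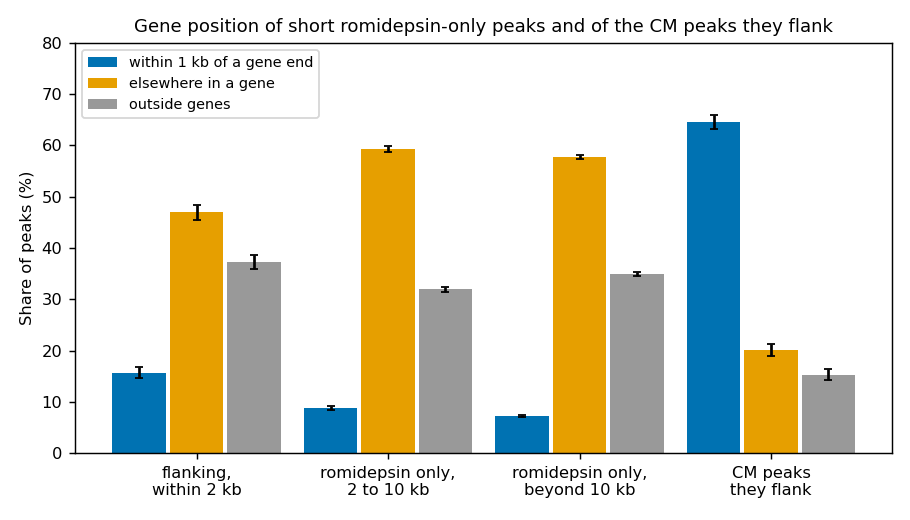
Share of peaks (vertical axis, percent, with exact 95% intervals) by gene position for the flanking peaks, for short romidepsin-only peaks at 2 to 10 kb and beyond 10 kb of a CM peak, and for the CM peaks that are flanked. The gene-end share is 15.7% for the flanking peaks and 64.6% for the CM peaks they flank.

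The gene-end share was highest for the nearest flanking peaks. It was 50.2% for the 271 peaks within 499 bp of the CM edge, 21.9% at 500 to 999 bp, 12.1% at 1000 to 1499 bp and 11.4% at 1500 to 2000 bp, against 9.36% beyond the limit and up to 5 kb. A start site lay within 1 kb for 41.0% of the peaks nearest to the CM edge and for 2.21% of those at 1500 to 2000 bp. Of all 4478 CM peaks nearest to flanking peaks, at any distance within the limit, 48.5% contained a start site and 64.6% lay at gene ends. How far that moves the gene-end share of the flanking peaks was not tested. The share of flanking peaks that contained a start site was 1.48% in the nearest class and 0.721% at 1500 to 2000 bp.

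**Figure D5:**
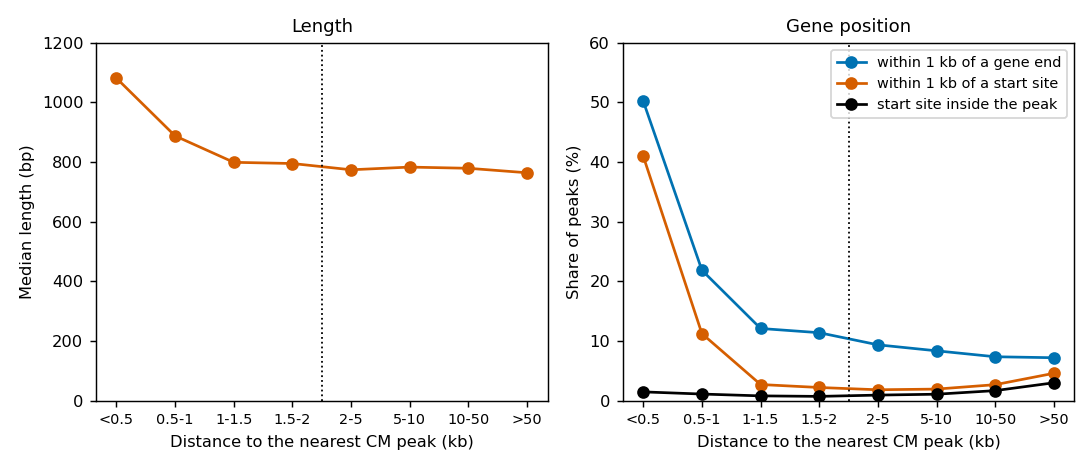
Median length in bp (left) and share of peaks in percent by gene position (right) of short romidepsin-only peaks, by distance to the nearest CM peak in kb (horizontal axis, unequal classes); the dotted line marks the 2 kb limit. The gene-end share is 50.2% in the nearest class and 9.36% in the first class beyond the limit, and the median length 1081 and 774 bp.

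The flanking peaks were mostly under 1 kb long. Their median length was 829 bp (quartiles 488 and 1518), against 779 bp at 2 to 10 kb and 774 bp beyond 10 kb, and 58.8% were shorter than 1000 bp. The shortest length in the romidepsin list, 293 bp, was taken by 173 of them. Their median fold was 2.60 and that of the peaks at 2 to 10 kb 2.55, and 16.8% had a fold of at least 3. The nearest class, within 499 bp, had a median length of 1081 bp, a median fold of 2.91 and a median −log10 q of 3.06. Over the 5074 peaks Spearman's rho was −0.14 between distance and fold, 0.52 between length and fold, and −0.05 between the fold of the flanking peak and that of its CM peak. These are descriptions of peaks from shared libraries, each condition's fold resting on its own background.

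The highest fold was 4.84 in a peak of 3267 bp outside genes (chr17:28511570-28514836, −log10 q 9.59), beside a CM peak of 439 bp that also lay outside genes. Ptpn7 and Klf2, above, were among the first 5. Another lay outside genes at chr11:59526944-59527918 (fold 4.39), and the last at the ends of Kremen2, a co-receptor of the Wnt inhibitor Dickkopf, and Paqr4 (chr17:23741683-23743174, fold 4.29).

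The longest flanking peaks reached close to the length limit. Among the 5 longest were those in Agap1, a GTPase-activating protein gene (4975 bp, fold 3.14), in Hvcn1, the proton channel gene of phagocytes (4973 bp, fold 3.77), beside Cotl1, which encodes an actin-binding protein (4964 bp, fold 2.93), and at Patl2 and Trim69 (4959 bp, fold 3.29). The first peak beyond the limit was 5011 bp long (fold 3.19), and 177 romidepsin-only peaks of 5000 bp or longer lay within 2 kb of a CM peak. At the distance limit a peak of 2071 bp at 2000 bp had a fold of 3.34, and one of 515 bp in Pcgf2, 1 bp beyond the limit, had 2.57.

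Of the 16419 CM peaks, 4516 (27.5%) had at least 1 flanking peak, 429 of them on both sides. A single flanking peak was found at 3937 CM peaks, a pair at 545, 3 at 33 and 4 at 1. The flanked CM peaks had a median length of 1165 bp, against 1099 bp for the CM peaks without one, and a median fold of 5.20, against 4.96. The romidepsin peak over them was shorter, with a median of 3998 bp at flanked CM peaks and 6801 bp at the others. A longer one leaves less room within 2 kb of the CM edge by construction.

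The CM peak with 4 flanking peaks lay at Cd79b, a B cell receptor subunit gene (chr11:106314195-106314528, 334 bp). It was also 1 of 6 flanked CM peaks that no romidepsin peak overlapped. Its flanking peaks of 937 and 981 bp stood 24 and 99 bp from its edges, with folds of 2.95 and 2.67, and the outer pair were 544 and 380 bp long. A CM peak in Clmp, an adhesion molecule gene, had 3, with folds of 3.14, 3.07 and 3.40. An intergenic CM peak (chr11:59525569-59526606) had 3, with folds of 2.84, 4.39 and 2.85.

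Of 10678 protein-coding genes with a gene-end CM peak, 3378 (31.6%) had a flanking peak beside it, and the shares of the gene lists below are read against that value. Over all 374 matched genes of the 21 lists, 64 of 245 genes with a gene-end CM peak (26.1%) were flanked. The lists are small, no list was tested, and CM peaks near a gene's end can belong to a neighbour. The room beside the CM peaks also differed between lists and is given below, against 53.2% of sides over all genes.

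In the senescence and cell cycle arrest list 2 of 17 genes were flanked, with room on 31.6% of sides. Trp53, which encodes p53, had one of 3913 bp inside the gene (chr11:69584023-69587935, fold 3.27), beside a CM peak shared with Wrap53. Gadd45a, a stress-response gene, had one on each side, of 3238 bp upstream (fold 3.12) and 462 bp on the gene-body side, past the end of the gene (fold 3.07). The AP-1 and immediate early list, whose genes respond within minutes to stimuli, had 0 of 14, Fos, Jun and Egr1 included. At the CM peaks of that list the romidepsin peak was a median of 12833 bp long and left room on 5 of 36 sides (13.9%), against 53.2% of the sides of gene-end CM peaks of all genes. Proliferation genes had 4 of 20 (Mki67, Mcm6, Ccne2 and Plk1), with room on 52.5% of sides.

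Deacetylase genes, whose products romidepsin inhibits in part, were flanked at 6 of 9 genes with a gene-end CM peak (66.7%), with room on 54.5% of sides. The flanking peaks of the class I genes Hdac1 (994 bp, fold 2.37), Hdac2 (293 bp, fold 2.26) and Hdac3 (728 bp, fold 2.28) were under 1 kb long, and those of Hdac5 and Sirt1 were 293 and 341 bp long. Hdac10 had the strongest, of 2929 bp (chr15:89129830-89132758, fold 3.48), which overlapped the neighbouring kinase gene Mapk12, and a second beside the CM peak over the start of Tubgcp6. Acetyltransferase and reader genes were flanked at 4 of 14, with room on 35.3% of sides. Among them were Kat5, a catalytic acetyltransferase (2279 bp upstream, fold 3.51), Mllt1 and Kat6a.

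Monocyte and macrophage markers were flanked at 3 of 17 genes, neutrophil markers at 4 of 11, with room on 31.0% and 40.9% of sides. Csf3r, the receptor of granulocyte colony-stimulating factor, had a flanking peak of 4651 bp upstream (chr4:126017300-126021950, fold 3.39). Elane, the neutrophil elastase gene, had one of 1869 bp (fold 3.24). S100a8, a calprotectin subunit gene, had 2 short ones on the gene-body side, both outside genes (folds 2.85 and 2.44). Gfi1, a transcription factor of granulocyte differentiation, had 2 short ones on that side within the gene (folds 2.55 and 2.35). Msr1, a scavenger receptor gene, had 2 within the gene (folds 2.95 and 2.59), and Klf4 and the chemokine receptor gene Cx3cr1 had 1 each (folds 2.56 and 2.65).

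Lipid handling and lysosome genes were flanked at 5 of 18: Grn, Fabp5, a fatty acid carrier (1373 bp, fold 3.30), Lpl, a lipase (1710 bp, fold 2.91), Npc2, a cholesterol carrier of the lysosome (911 bp, fold 2.62), and Tyrobp. The flanking peak in Tyrobp, the adaptor gene of TREM2 (chr7:30415195-30415696, 502 bp, fold 3.08), stood between a pair of CM peaks, 410 bp from one and 540 bp from the other. Genes of immune suppression were flanked at 3 of 12: Hif1a, the hypoxia factor (2485 bp, fold 3.06), Lgals9, which encodes galectin-9, and Wfdc17. Secreted factors were flanked at 2 of 9, the chemokine genes Ccl3 and Ccl4, which share the CM peak. Its stronger flanking peak lay inside Ccl4 (chr11:83650877-83652380, fold 3.49).

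Interferon response genes were flanked at 7 of 18, with room on 31.0% of sides. Besides Oasl1, described above, these were the DNA sensor gene Cgas (543 bp upstream, fold 2.72), its downstream adaptor gene Sting1 (893 bp, fold 2.37), the RNA sensor gene Ddx58 (3263 bp upstream, fold 2.87), Ifit1, Ifit3 and the receptor gene Ifnar2. The flanking peak at Cgas overlapped the neighbouring Mto1. NF-kappaB pathway genes were flanked at 6 of 19, with room on 27.1% of sides. Tnfaip3, which encodes the inhibitor A20, had a flanking peak of 3908 bp upstream (fold 2.87), and Nfkb1, Irak1, Irak3, Irak4 and Map3k7 had shorter ones.

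Apoptosis genes were flanked at 5 of 12 anti-apoptotic and 3 of 18 pro-apoptotic genes, with room on 32.1% and 37.5% of sides. Birc6 had the strongest of these, of 2510 bp outside genes (chr17:74522804-74525313, fold 3.58). Bcl2 had one of 1946 bp upstream (fold 2.64), Bcl2l2 had 2 upstream, and Bag1 and Birc2 had 1 each. The flanking peak at Bag1 lay in the neighbouring Chmp5. Among the pro-apoptotic genes, Bbc3, which encodes PUMA, had one of 2004 bp upstream (fold 2.73). Bcl2l11, which encodes BIM, had one of 537 bp in the neighbouring Acoxl (fold 2.43). Cycs, the cytochrome c gene, had one of 2409 bp on the gene-body side (fold 2.60).

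Lymphocyte markers were flanked at 2 of 4 genes, Cd79b and Cd79a, with room on 50.0% of sides. At Cd79a the CM peak covered the start of Arhgef1 and the flanking peak lay in that gene (3632 bp, fold 3.49). Dendritic cell markers were flanked at 1 of 7 (H2-Ab1, fold 2.49), erythroid and megakaryocyte markers at 2 of 6 (Pf4 and Tfrc), and stromal and endothelial markers at 1 of 1 (Kdr, 1252 bp upstream, fold 3.27). Room was left on 31.25%, 58.3% and 100% of the sides of these 3 lists. The flanking peak at Pf4, a platelet chemokine gene, covered the start of its neighbour Ppbp (fold 3.26). Mast cell markers and the list of genes from unrelated tissues had no gene-end CM peak. Housekeeping genes were flanked at 4 of 19, with room on 19.6% of sides. The strongest was at B2m, the light chain of MHC class I (2089 bp within the neighbouring Patl2, fold 3.63).

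Flanking peaks were 5074 of the 103336 peaks of the romidepsin list. Of 1005 microRNA hairpins in the reference table, 319 lay under a romidepsin peak and 11 under a flanking peak, a count from which nothing is read. Among them, named after their values were seen, were Mirlet7e (chr17:17830352-17830444, fold 3.07), Mir195a (chr11:70235042-70235135, fold 2.54) and Mir449a (chr13:113037534-113037624, fold 2.70).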

How the data were processed

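H3K9ac peak lists of 1 library with romidepsin and 1 without were used. Per the submitters' processing notes, Bowtie2 (2.4.4), MACS2 (2.2.7.1) and deepTools (3.5.1) were used with build mm10. For settings, read filters and use of the input as control, the sources used here give nothing. In each deposited list the authors gave a score, a fold enrichment (a ratio over background) and −log10 values of p and q (p-value and q-value) per peak, averaged over the broad region. No depth is known, and a peak's absence from a list is not absence of H3K9ac.

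Peaks were placed by overlap of at least 1 bp with Python (3.11.15), pandas (2.3.3) and NumPy (2.4.6). Genes were 21896 protein-coding genes of RefSeq GRCm38.p6. Start sites and strand came from RefSeq promoter windows, which matched 17491 of them and none on chromosome 18, where 115 of the flanking peaks lay. Exact Clopper-Pearson intervals were computed with SciPy (1.17.1). The code for members, sides and positions was tested on simulated data. Members and gene lists were chosen with earlier results of these data known. Of 375 listed genes 374 were matched (not Mx1). Named were the 5 members with the highest fold, the 5 longest, those at the limits, the 3 CM peaks with the most members and, for each of 21 gene lists, the gene with the member of highest −log10 q. Further list members and microRNAs in the text were picked with their values known. Some named items are not reported here. Alternatives covered distance, length, overlap, thresholds, merging, chromosomes and gene windows.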

Additional observations from a re-analysis of the deposited data

How the results depend on the processing

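With 1 library per condition, nothing here has a replicate check, and peak edges move with depth, which is unknown. No paired analysis was possible because each condition has 1 library and no test was run. Restricting to chromosomes 1 to 19 and X moved no value beyond its interval. Counting a romidepsin peak as shared only when the overlap took up most of it, or most of a CM peak, gave 5104 flanking peaks. Sides with room and midpoint positions were examined after seeing the data.

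The number of flanking peaks was 1262 within 1 kb, 17026 within 5 kb, 2975 and 124 at a romidepsin −log10 q of at least 2 and 5, 2157 at a CM −log10 q of at least 5, 852 at a romidepsin fold of at least 3 and 306 with merging. As a percentage of romidepsin-only peaks it was 5.64% as reported, and 1.40% (1 kb), 18.9% (5 kb), 4.70% (under 2000 bp), 5.88% and 6.71% (romidepsin −log10 q of 2 and 5), 2.22% (CM −log10 q of 5) and 0.640% (merging). The gene-body share of flanking peaks beside CM peaks over start sites was 51.8% within 5 kb and 40.2% at a CM −log10 q of 5. It was 44.2% within 1 kb.

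The gene-end, within-gene and intergenic shares were 27.9%, 42.5% and 29.6% within 1 kb, and 11.3%, 54.1% and 34.6% within 5 kb. They were 17.8%, 46.2% and 36.0% at a romidepsin −log10 q of 2, and 18.9%, 45.8% and 35.3% at a CM −log10 q of 5. They were 10.2%, 49.1% and 40.7% with windows of 500 bp, 52.8%, 30.1% and 17.2% with 2.5 kb, and 9.20%, 49.6% and 41.2% by midpoint. Median length and fold were 920.5 bp and 2.71 within 1 kb, 790.0 bp and 2.57 within 5 kb, 1191 bp and 2.81 at a romidepsin −log10 q of 2, and 862 bp and 2.60 at a CM −log10 q of 5.

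Flanked genes numbered 870 within 1 kb. The share of sides with room that held a flanking peak was lower upstream than on the gene-body side in each alternative run: 14.5% and 27.6% within 1 kb, 46.2% and 55.2% within 5 kb, 16.0% and 19.8% at a romidepsin −log10 q of 2, and 31.6% and 41.2% at a CM −log10 q of 5. The cause of these shifts was not tested.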
